A study of Mus musculus with 6 samples.

Results

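The neuropilins and plexins are the cell-surface receptors for semaphorins. The 9 genes described here are Nrp1, Nrp2, Plxna1, Plxna2, Plxna3, Plxnb1, Plxnb2, Plxnc1 and Plxnd1, out of 18193 genes that carry a symbol of their own on the arrays. All 26 probe sets annotated to one of these symbols alone were taken. The gene set was selected on signals of these same 6 arrays, and which of the comparisons was used is not stated. The differences of its members are therefore a description. Where the fit over the whole array called a member, the call is counted as part of that description and not as support. Plxna4 and Plxnb3 belong to the same family but were not in the set, and are given with the related genes.

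The study directed hairpins against macroH2A histone variants, H2A proteins with a large extra macro domain, in B16-F1 cells, a melanoma line from C57BL/6J mice. Lentivirus delivered a stable short hairpin RNA (shRNA), and the 3 resulting lines carried one directed against macroH2A1, against macroH2A2 or, as the control, against GFP. Every line was measured on 2 one-colour arrays, described as biological replicates, which makes 6 arrays of total RNA. All 3 lines carry a lentiviral hairpin, the control included, and as far as the labels say there was a single hairpin line per target, so that an effect of the target and an effect of that hairpin or line cannot be told apart.

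Neuropilins are single-pass receptors with short cytoplasmic tails. They bind secreted class 3 semaphorins and several vascular endothelial growth factors (VEGF), and for semaphorins they usually signal together with a class A plexin. Plexins span the membrane once and carry a cytoplasmic domain with GTPase-activating activity toward small Ras-family GTPases, and ligand binding by plexins typically loosens integrin adhesion and the actin cytoskeleton. Melanocytes derive from the neural crest, whose migration is guided by these receptors, and NRP2 and PLXNC1 have both been studied in melanoma.

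The widest differences in the family belonged to Nrp2. The 250 bases before its annotated start (chr1:62703067-62703316, plus strand, RefSeq on GRCm38.p6) are shown because they lie upstream of the member with the widest difference. Capitals mark GGGCGG on either strand (CCGCCC when read on the other), the core of a GC box, and matches that overlap run together.
Nrp2: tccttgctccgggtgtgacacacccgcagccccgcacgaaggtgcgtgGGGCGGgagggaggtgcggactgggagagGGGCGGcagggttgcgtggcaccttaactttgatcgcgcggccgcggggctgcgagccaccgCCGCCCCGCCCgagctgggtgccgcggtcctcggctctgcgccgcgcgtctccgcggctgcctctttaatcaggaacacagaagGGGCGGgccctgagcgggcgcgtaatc
This window held the motif 5 times, 3 on the printed strand and 2 on the other, together with 32 CpG dinucleotides. RefSeq windows were found for 8 of the 9 genes, 9 windows in all, and each of the 9 held the motif at least once, against 32.7% of 32851 windows of the same length over all genes. Their CpG counts ran from 11, for Nrp1, to 32, for Nrp2, where the median of all windows was 6. A match to these letters is a description and not a binding site.

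A few facts of the whole series bear on every value. Signals are MAS5 intensities on a linear scale, with a median of 15.1 to 24.6 on the 6 arrays. Macroh2a1 read 1212.7 and 1262.4 on the control arrays, 444.2 and 319.1 with macroH2A1 shRNA and 1271.2 and 1170.5 with macroH2A2 shRNA, so that label was borne out. Macroh2a2 read 6.1 and 7.5 on the control arrays, 3.5 and 2.0 with macroH2A1 shRNA and 11.9 and 8.3 with macroH2A2 shRNA. These signals were below the filter and not lower in the line labelled macroH2A2 shRNA, so its label was not checked and no depletion was seen. All 7 melanocyte markers were bright in all lines, the dimmest of them, Sox10, at 1288.3 or more, and their summed signal was 32809.3 to 33600.3 in control cells, 35749.4 to 41995.3 with macroH2A1 shRNA and 32714.3 to 37739.4 with macroH2A2 shRNA. Against control, 6 of them differed by 0.23 to 0.27 on the log2 scale with macroH2A1 shRNA, while Tyr differed by -0.44 (SE 0.13). The part of these shifts in the results was not tested. Of 8 endothelial markers, 7 stayed under 50 on every array, among them Pecam1 at 0.7 to 10.5, Cdh5, Tek and Tie1. Their summed signal was 431.7 to 442.1 in control cells, 416.8 to 477.7 with macroH2A1 shRNA and 390.3 to 456.6 with macroH2A2 shRNA, most of it from Eng. The 7 leukocyte markers were all under 50, with sums of 65.9 to 89.7, 63.9 to 89.5 and 65.0 to 66.8 in the same order of lines. Fibroblast markers summed to 119.2 to 181.7, 110.5 to 144.3 and 104.3 to 118.4. The 2 tested among them went opposite ways. Pdgfra differed from control by -0.89 and -0.99 (SE 0.25 each) and Col1a2 by 0.46 and 0.27 (SE 0.20 each). Neuron and Schwann cell markers summed to 1261.5 to 1777.9, 1273.5 to 1777.5 and 1408.6 to 1900.7, most of it from S100b. That gene differed from control by 0.13 and 0.39 (SE 0.27 each), while Tubb3 differed by -0.30 and -0.71 (SE 0.19 each).

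Nrp2 was the member with the widest difference between lines, and all 4 of its probe sets read lower in the macroH2A1 shRNA line than in the control line. The brightest, 1435349_at, gave signals of 2075.8 and 1656.4 on the control arrays, 1234.0 and 887.1 with macroH2A1 shRNA and 1650.6 and 1751.6 with macroH2A2 shRNA. Both macroH2A1 shRNA arrays lay below all 4 others. The group means were 1866 ± 297, 1061 ± 245 and 1701 ± 71.4 (SD, n = 2 arrays each). On the scale log2(signal + 16), which understates the change of dim probe sets, the macroH2A1 shRNA line differed from control by -0.82 (SE 0.18), a 1.76-fold lower level. In RNA from whole cultures, fewer cells with the transcript and less of it per cell cannot be told apart.

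The second probe set of Nrp2, 1456778_at, read 1030.3 and 1527.5 in control cells, 560.1 and 727.4 with macroH2A1 shRNA and 1017.9 and 1043.0 with macroH2A2 shRNA. Again the macroH2A1 shRNA arrays were the lowest and did not overlap either other group, with a log2 difference from control of -0.96 (SE 0.21), or 1.94-fold. Its order of the replicates was the reverse of the other Nrp2 probe sets, replicate 2 being the higher one in the control and macroH2A1 shRNA lines. Measured within replicate set 1 and set 2, the difference was nevertheless -0.86 and -1.05, so that both sets gave a similar size.

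The third probe set, 1426528_at, gave 423.5 and 337.9 in control cells, 209.4 and 127.0 with macroH2A1 shRNA and 291.3 and 317.8 with macroH2A2 shRNA. Here the 3 groups did not overlap at all, and the order was control, then macroH2A2 shRNA, then macroH2A1 shRNA. The log2 difference between the macroH2A1 shRNA and control lines was -1.14 (SE 0.24), a 2.20-fold lower level and the widest of the 4. The dimmest probe set, 1447343_at, read 102.5 and 63.7, then 66.5 and 20.7, then 91.9 and 30.1 in the same order of lines. Its groups overlapped, and replicate 1 was higher than replicate 2 in each line by 0.57, 1.17 and 1.23 on the log2 scale. Its log2 difference from control in the macroH2A1 shRNA line was -0.82 with an SE of 0.49.

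**Figure D1:**
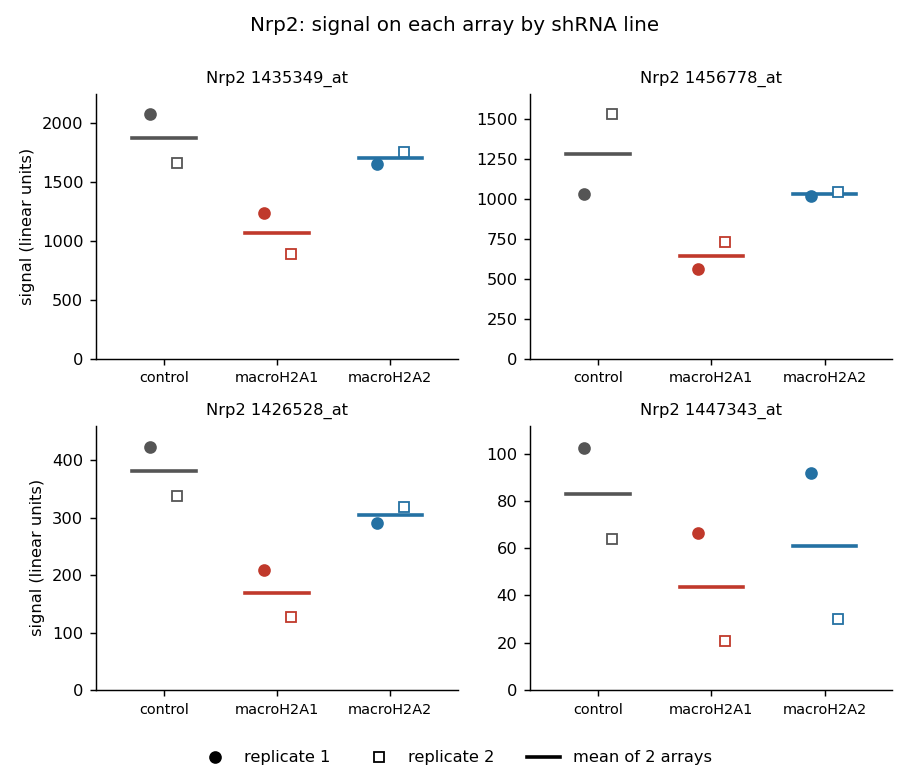
Signal (linear units, axes from 0) of the 4 Nrp2 probe sets on each of the 6 arrays, by shRNA line, with filled circles for replicate 1, open squares for replicate 2 and bars for the mean of 2 arrays. In 3 panels both macroH2A1 shRNA arrays lie below every other array, and in the panel of 1447343_at the lines overlap.

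Nrp2 was thus lower in the macroH2A1 shRNA line in both replicate sets for every probe set, from -0.52 to -0.96 in set 1 and from -0.89 to -1.31 in set 2. The median of the 4 probe sets was -0.89, and that of all 27025 tested probe sets was -0.03. These probe sets are annotated to the same gene and are not replicates of one another. For 3 of them, the groups of arrays did not overlap, with the macroH2A1 shRNA line lower, which held for 14.9% of all tested probe sets. Leaving out each array in turn moved the log2 difference of 1435349_at between -1.05 and -0.58, that of 1456778_at between -1.24 and -0.68 and that of 1426528_at between -1.46 and -0.81. For 1447343_at the same range was -1.40 to -0.24.

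In the fit of group means by limma, no tested probe set of the array had an adjusted p under 0.05 in the macroH2A1 shRNA comparison (0 of 27025, or 0%, with 1189 at an unadjusted p under 0.05), Nrp2 included. With the replicate set as a block, limma called 52 (0.192%), and 2 of the 17 tested member probe sets were among them, both of Nrp2 (1456778_at and 1426528_at). Since the members were chosen with values of these arrays in view, nothing is read from that count. With all arrays, the blocked limma fit did not call 1435349_at (adjusted p = 0.0539) or 1447343_at (adjusted p = 0.191). The calls of 1456778_at and 1426528_at were lost after quantile normalization, without the signal filter and whenever the second replicate of the control or of the macroH2A1 shRNA line was left out. That of 1456778_at was also lost without macroH2A1 shRNA replicate 1 and that of 1426528_at without Control shRNA replicate 1.

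In the macroH2A2 shRNA line all 4 Nrp2 probe sets read lower than in control, by less than in the macroH2A1 shRNA line. The log2 differences from control were -0.12 (SE 0.18) for 1435349_at, -0.28 (SE 0.21) for 1456778_at, -0.30 (SE 0.24) for 1426528_at and -0.46 (SE 0.49) for 1447343_at. Within replicate sets 1 and 2 they were -0.33 and 0.08, -0.02 and -0.54, -0.52 and -0.08, and -0.14 and -0.79 in that order of probe sets. Thus 3 were lower in both sets, and 1 was not. The groups of 3 of the 4 overlapped, and the difference of 1435349_at ran from -0.36 to 0.12 over all 21 alternative fits. The direct difference of the macroH2A2 shRNA minus the macroH2A1 shRNA line was 0.69 (SE 0.18), 0.68 (SE 0.21), 0.84 (SE 0.24) and 0.36 (SE 0.49) in the same order of probe sets. It was above 0 in both replicate sets for all 4, though leaving out single arrays moved the last between -0.26 and 0.97. In 3 of the 4 the macroH2A2 shRNA arrays were higher without overlap, as for 13.3% of all tested probe sets, and 0 members were among the 1 probe set (0.00370%) that the blocked limma fit called in this comparison. The comparisons with control share the 2 control arrays.

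Nrp1, the other neuropilin and the main receptor for Sema3a, showed no such separation of the lines. Its brightest probe set, 1448943_at, read 511.4 and 430.9 in control cells, 530.1 and 347.5 with macroH2A1 shRNA and 467.9 and 394.8 with macroH2A2 shRNA. The 3 groups overlapped throughout. The log2 difference between macroH2A1 shRNA and control was -0.12 (SE 0.22), with 0.05 in set 1 and -0.30 in set 2.

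The further Nrp1 probe sets gave log2 differences of -0.11 (SE 0.17) for 1418084_at, 0.03 (SE 0.20) for 1448944_at and -0.07 (SE 0.51) for 1457198_at in that comparison. Against control the macroH2A2 shRNA line differed by -0.12, -0.23, -0.24 and -0.14 over the 4 probe sets, and only 1418084_at had groups without overlap, at 229.6 and 196.3 against 276.5 and 230.5. The dim 1457198_at separated the replicate sets and not the lines. Its replicate 1 arrays read 60.4, 60.4 and 54.1 and its replicate 2 arrays 22.1, 18.4 and 18.0 in control, macroH2A1 shRNA and macroH2A2 shRNA cells.

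**Figure D2:**
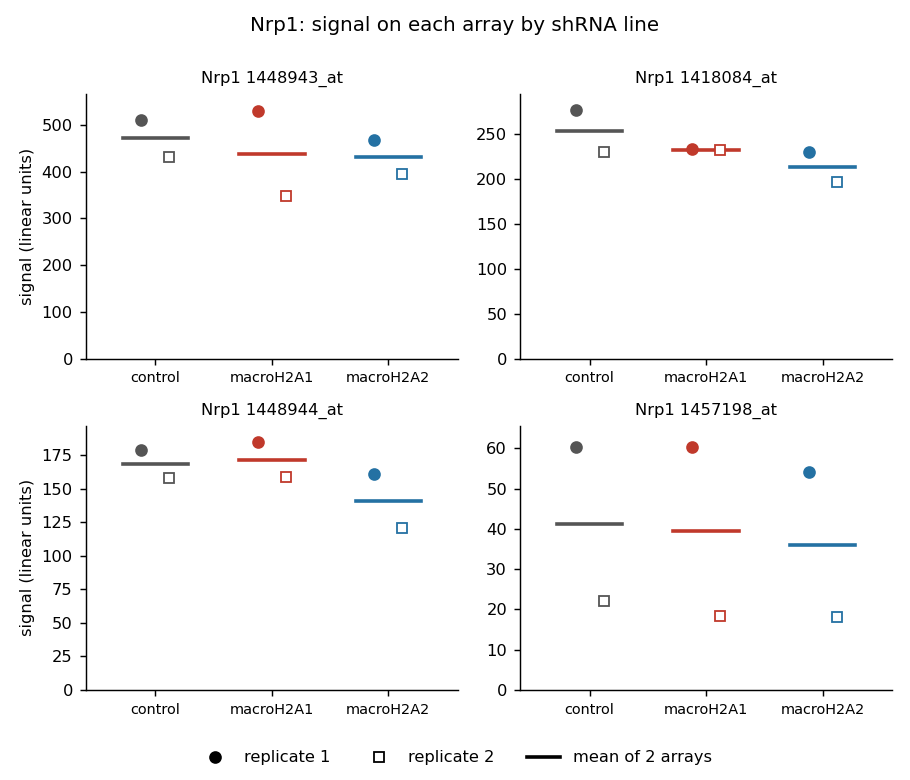
Signal (linear units, axes from 0) of the 4 Nrp1 probe sets on each of the 6 arrays, by shRNA line, with filled circles for replicate 1, open squares for replicate 2 and bars for the mean of 2 arrays. The macroH2A1 shRNA and control arrays overlap in all 4 panels, and 1457198_at reads 54.1 or more on every replicate 1 array and 22.1 or less on every replicate 2 array.

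Class A plexins are the usual signalling partners of neuropilins. Plxna1 read 764.8 and 517.9 in control cells, 843.5 and 699.9 with macroH2A1 shRNA and 643.4 and 487.7 with macroH2A2 shRNA with its bright probe set, 1428623_at. The control arrays spanned most of this range. The log2 difference from control was 0.28 (SE 0.22) for macroH2A1 shRNA and -0.16 (SE 0.22) for macroH2A2 shRNA. Between the macroH2A lines it was -0.44 (SE 0.22), without overlap and similar in both replicate sets at -0.38 and -0.51.

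Plxna3 was dim, at 18.3 to 36.9 over all 6 arrays with its brighter probe set, and its groups overlapped in every comparison. Its log2 difference from control was 0.18 (SE 0.27) with macroH2A1 shRNA and 0.01 (SE 0.27) with macroH2A2 shRNA. Plxna2 was at the lower end of detection, with 4 probe sets between 0.5 and 14.5 on all arrays. None of them reached the filter of 10.4 for the mean signal, so no difference in Plxna2 was measurable here. In all, 9 of the 26 probe sets fell below the filter, with signals from 0.5 to 18.2. They were the 4 of Plxna2, 3 of 6 for Plxnc1, 1 of 2 for Plxna1 and 1 of 2 for Plxna3.

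The class B plexins bind class 4 semaphorins and carry a C-terminal PDZ-binding motif. Plxnb1 was measured by a pair of probe sets that gave like differences. The brighter, 1435254_at, read 237.4 and 173.5 in control cells, 242.5 and 194.0 with macroH2A1 shRNA and 220.6 and 247.7 with macroH2A2 shRNA. Its groups overlapped in every comparison, with log2 differences from control of 0.09 and 0.19 (SE 0.20 each), and those of 1435255_at were 0.06 and 0.22 (SE 0.24 each).

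Plxnb2, a receptor for Sema4c, gave its lowest values in the macroH2A2 shRNA line. It read 947.9 and 637.7 in control cells, 793.5 and 825.8 with macroH2A1 shRNA and 564.8 and 573.9 with macroH2A2 shRNA. The macroH2A2 shRNA arrays were the lowest and nearly equal, while the control arrays lay far apart. The log2 difference from control was -0.44 (SE 0.19), but -0.73 in replicate set 1 and -0.15 in set 2, and it was -0.16 without Control shRNA replicate 1. Against the macroH2A1 shRNA line the difference was steadier, at -0.50 (SE 0.19), with -0.48 and -0.51 within the sets. The array held 1 probe set for this gene.

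Plxnc1, the receptor for Sema7a, read higher in the macroH2A1 shRNA line with its brightest probe set. 1423213_at gave 667.4 and 606.8 in control cells, 834.6 and 838.5 with macroH2A1 shRNA and 708.0 and 847.4 with macroH2A2 shRNA. The control arrays were the lowest, and neither macroH2A line overlapped them. The log2 differences from control were 0.39 (SE 0.14), with 0.32 and 0.46 within the sets, and 0.28 (SE 0.14), with 0.08 and 0.47 within the sets. The second probe set, 1450905_at, read 357.9 and 445.5, then 403.4 and 547.0, then 419.5 and 625.2, with replicate 2 higher in each line. Its groups overlapped with control, at log2 differences of 0.23 and 0.35 (SE 0.23 each, or 0.14 with the replicate block). Within the sets these were 0.17 and 0.29, and 0.22 and 0.47, all above 0. The third, 1423214_at, had 0.20 and 0.04 (SE 0.19 each), with 0.11 and 0.29, and -0.09 and 0.18, within the sets. The group differences of the 3 tested probe sets thus shared the sign in both comparisons and differed in size. With macroH2A2 shRNA the third did not keep that sign in both replicate sets. The 3 below the filter, at 18.2 or less, gave -0.16, -0.20 and -0.12 with macroH2A1 shRNA. With macroH2A2 shRNA they gave -0.51, 0.06 and -0.00.

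Plxnd1, the receptor that Sema3e can bind without a neuropilin, read 666.9 and 485.6 in control cells, 780.1 and 729.1 with macroH2A1 shRNA and 564.8 and 468.7 with macroH2A2 shRNA. The macroH2A1 shRNA arrays were above all others, and the control and macroH2A2 shRNA arrays overlapped. The log2 difference from control was 0.40 (SE 0.18) for macroH2A1 shRNA, with 0.22 and 0.57 within the sets, and -0.14 (SE 0.18) for macroH2A2 shRNA. The macroH2A1 shRNA difference from control was 0.17 without Control shRNA replicate 2. Between the macroH2A lines the difference was -0.54 (SE 0.18), with -0.45 and -0.62 within the sets.

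**Figure D3:**
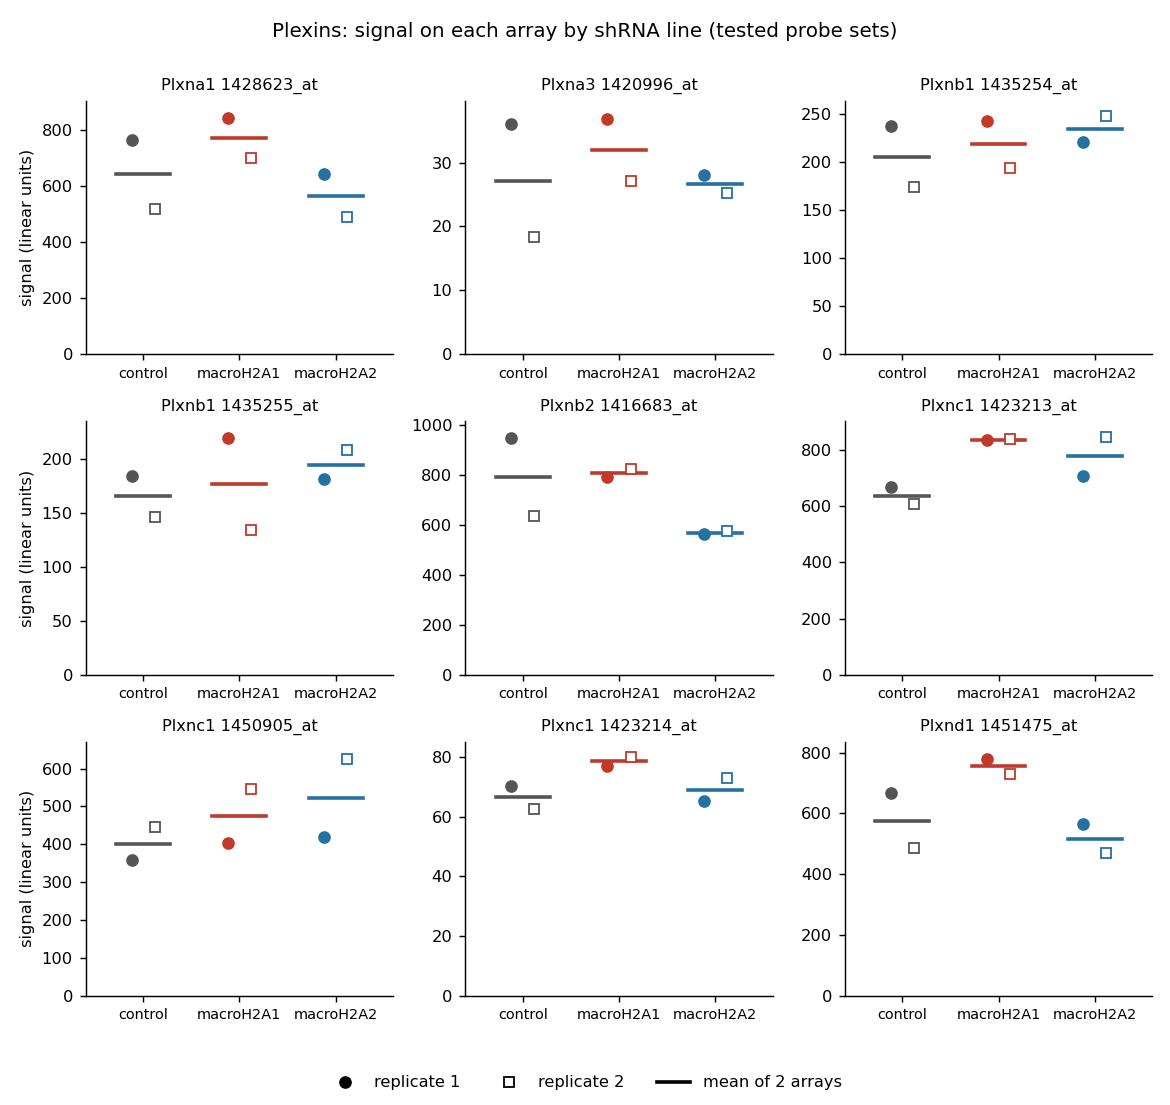
Signal (linear units, axes from 0) of the 9 tested plexin probe sets on each of the 6 arrays, by shRNA line, with filled circles for replicate 1, open squares for replicate 2 and bars for the mean of 2 arrays. Plxnb2 is lowest on both macroH2A2 shRNA arrays, Plxnd1 is highest on both macroH2A1 shRNA arrays, and Plxnc1 1423213_at is lowest on both control arrays.

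Among the 13 tested probe sets of members other than Nrp2, 10 read higher and 3 lower in the macroH2A1 shRNA line, with log2 differences from -0.12 to 0.40 and a median of 0.09. Several of the 13 measure the same gene and all share the control arrays, so they are not separate observations. By the brightest probe set of each of the 8 tested genes, Nrp2 included, 6 were higher and 2 lower. Over all tested probe sets 55.6% were lower. Of these 13, 3 were higher without overlap between the groups of arrays (Plxnc1 1423213_at and 1423214_at, and Plxnd1), as were 13.0% of all tested probe sets, and 0 were lower without overlap. No Nrp2 value lay inside the range of the 13. After quantile normalization or centring of the arrays on their medians 10 of the 13 were again higher while the 4 Nrp2 probe sets were again lower. The share of all tested probe sets that were higher also rose, from 44.4% to 50.7% after quantile normalization and 54.8% after centring.

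The same 13 probe sets showed no common direction in the macroH2A2 shRNA line, with 6 higher and 7 lower, a range of -0.44 to 0.35 and a median of -0.12. Without overlap, 1 was higher (13.0% of all tested probe sets) and 2 were lower (16.2%). Limma called 0 of 27025 probe sets there without the block (0%, with 1075 at an unadjusted p under 0.05) and 39 with it (0.144%), and 0 of the 17 tested member probe sets were among them. Between the macroH2A lines, without the block, limma again called 0 (0%, with 739 at an unadjusted p under 0.05). In that comparison 5 of the 13 were lower in the macroH2A2 shRNA line without overlap, against 14.6% of all tested probe sets, and they came from Nrp1, Plxna1, Plxnb2, Plxnc1 and Plxnd1.

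**Figure D4:**
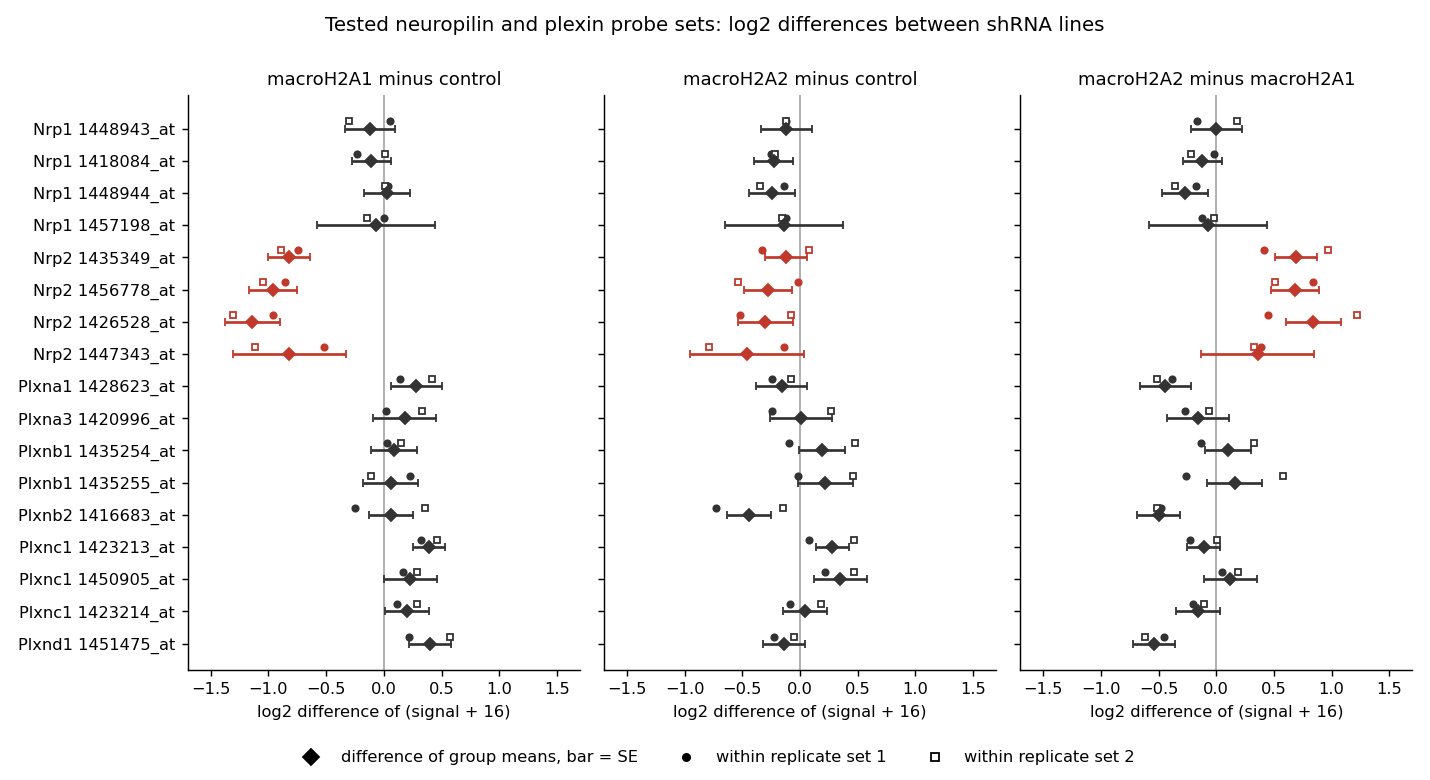
Log2 difference of signal + 16 (x axis) for the 17 tested member probe sets (y axis) in the 3 comparisons, with diamonds for the difference of group means, bars for its SE from the limma fit, and circles and squares for the difference within replicate sets 1 and 2. The 4 Nrp2 probe sets (red) lie between -1.14 and -0.82 in the first panel, while the others lie between -0.12 and 0.40.

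The replicate sets differed for these genes too. In the control line 15 of the 17 tested member probe sets were higher on the replicate 1 array, by a median of 0.31 on the log2 scale, where the median of all tested probe sets was 0.11. In the macroH2A1 shRNA line 12 of 17 were (median 0.26, all probe sets 0.05), and in the macroH2A2 shRNA line 8 of 17 (median -0.02, all probe sets 0.03). Their part in the differences from control was not tested. For the tested probe sets of members other than Nrp2, the within-set differences from control not given above had narrower ranges. They lay between -0.25 and 0.42 with macroH2A1 shRNA and between -0.35 and 0.48 with macroH2A2 shRNA, in set 1 or set 2.

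The genes with an array profile most like that of Nrp2 were sought by Pearson's r of log2 values over the 6 arrays, against probe set 1435349_at. The highest were Chrnb4, a nicotinic receptor subunit (r = 0.999), Clcc1 (0.995), Morc3 (0.992), Parp3, a poly-ADP-ribose polymerase (0.990), and Mef2c, a MADS-box transcription factor (0.989). Mef2c read 395.0 and 333.9 in control cells, 263.9 and 197.3 with macroH2A1 shRNA and 326.1 and 317.9 with macroH2A2 shRNA. That its order of lines is the one of Nrp2 follows from its choice by r. Chrnb4 was dim, at 2.6 to 22.6, as were Clcc1, at 24.3 to 46.0, Nkx2-5, at 8.9 to 18.2, and Myh3, at 20.4 to 27.9. The most opposed profiles were those of Nkx2-5 (r = -0.998), Atp5d (-0.993), Myh3 (-0.991), Ldah (-0.989) and Atp5k (-0.989), of which Atp5d and Atp5k encode subunits of mitochondrial ATP synthase. The arrays share line and replicate set, and 60 of 22699 other probe sets with 1 symbol (0.264%) reached an r of 0.95, so these values describe the arrays and no more. After quantile normalization the r of Clcc1 was 0.700 and that of Chrnb4 0.915, while those of Morc3, Parp3 and Mef2c were 0.979, 0.984 and 0.991. For the opposed profiles it was -0.929 for Nkx2-5, -0.907 for Atp5d, -0.800 for Myh3, -0.989 for Ldah and -0.801 for Atp5k. The Nrp2 probe sets themselves correlated with 1435349_at at 0.992 (1426528_at), 0.643 (1456778_at) and 0.659 (1447343_at). The genes named as highest reached only 0.616 to 0.662 with 1456778_at and 0.576 to 0.748 with 1447343_at. For the opposed profiles these r values were -0.671 to -0.629 and -0.737 to -0.592. The likeness thus holds for 1435349_at and 1426528_at and is weaker for the other Nrp2 probe sets.

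The ligands, partners and effectors of these receptors were followed as 7 lists with 90 genes, of which 87 were on the array under a symbol of their own and 68 passed the signal filter. Limma called 0 of the 68 in each of the 3 comparisons, with and without the block. At an unadjusted p under 0.05 there were 3 (4.41%) for macroH2A1 shRNA, 5 (7.35%) for macroH2A2 shRNA and 4 (5.88%) between the macroH2A lines, against 4.40%, 3.98% and 2.73% of all tested probe sets.

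Secreted class 3 semaphorins, the ligands of neuropilins, had 5 of 7 members above the filter, and Sema3a and Sema3d fell below it. Their median log2 difference from control was 0.01 with macroH2A1 shRNA and -0.14 with macroH2A2 shRNA. Sema3f, the class 3 ligand with a preference for Nrp2, was dim on 5 arrays, at 4.7 and 7.0 in control cells, 6.7 and 6.3 with macroH2A1 shRNA and 12.2 on one macroH2A2 shRNA array, with 50.5 on replicate 2 of that line. The difference of 0.99 (SE 0.39) from control rests largely on that 1 array, at 0.45 and 1.53 within the sets. Sema3e read 38.6 and 49.0, then 35.5 and 23.4, then 51.8 and 45.1 (-0.40, SE 0.24, for macroH2A1 shRNA), and a second probe set gave -0.03. Sema3c differed by -0.34 (SE 0.24).

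Of 13 membrane-bound semaphorins, the usual ligands of plexins without a neuropilin, 11 were tested. In the macroH2A1 shRNA line 7 were higher and 4 lower (median 0.07), and in the macroH2A2 shRNA line 4 were higher and 7 lower (median -0.17). The smallest unadjusted p in any comparison belonged to Sema4d, the ligand of Plxnb1, at 118.5 and 84.8 in control cells, 69.8 and 63.7 with macroH2A1 shRNA and 81.0 and 63.6 with macroH2A2 shRNA. Both macroH2A lines lay below the control arrays, with log2 differences of -0.49 and -0.41 (SE 0.22 each), and its second, dim probe set gave 0.02 for macroH2A1 shRNA. Sema7a, the ligand of Plxnc1, differed from control by -0.14 and -0.44 (SE 0.22 each), and Sema4g by 0.22 and -0.39 (SE 0.31 each).

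The plexins outside the set were both dim. Plxnb3 read 34.9 and 34.8 in control cells, 61.5 and 34.3 with macroH2A1 shRNA and 38.8 and 25.7 with macroH2A2 shRNA, with log2 differences from control of 0.30 and -0.09 (SE 0.28 each). Plxna4 read between 3.8 and 22.9 over the 6 arrays, with -0.37 and -0.36 (SE 0.34 each).

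VEGF ligands and receptors, which neuropilins assist, had 6 of 8 members tested, with medians of -0.10 and -0.13 for macroH2A1 shRNA and macroH2A2 shRNA. Vegfa read 587.4 and 234.1 in control cells, 326.3 and 161.8 with macroH2A1 shRNA and 145.4 and 274.4 with macroH2A2 shRNA, so that the control arrays lay far apart and all groups overlapped. Its log2 differences were -0.66 and -0.84 (SE 0.48 each), the latter being -1.90 in set 1 and 0.22 in set 2, and a second probe set gave 0.00 and -0.06. Pgf, placental growth factor, differed by -0.34 and -0.49 (SE 0.22 each), and Vegfb by 0.19 and -0.07 (SE 0.15 each).

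Among 6 tested co-receptors and membrane partners (medians 0.04 and 0.00, the latter -0.03 after quantile normalization), Met, a receptor tyrosine kinase that associates with class B plexins, had the smallest p. It read 3500.7 and 3253.5 in control cells, 2588.9 and 2723.6 with macroH2A1 shRNA and 3096.1 and 2882.5 with macroH2A2 shRNA, in 3 groups that did not overlap. The log2 difference from control was -0.34 (SE 0.11) for macroH2A1 shRNA and -0.18 (SE 0.11) for macroH2A2 shRNA. Limma gave adjusted p values of 0.907 and 1.0, and of 0.285 and 0.672 with the block. Gipc1, an adaptor that binds the neuropilin tail, differed by 0.00 and -0.15 (SE 0.17 each), and the dim Cntn2 by 0.32 and 0.02 (SE 0.28 each), with a second probe set at -0.44 for macroH2A1 shRNA.

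Of 26 tested cytoplasmic effectors, 13 were higher and 13 lower in the macroH2A1 shRNA line (median -0.01), and 12 and 14 in the macroH2A2 shRNA line (median -0.02), medians that became 0.04 and 0.05 when arrays were centred on their medians. Arhgef12, a guanine nucleotide exchange factor that class B plexins recruit, read 1398.9 and 1127.0 in control cells, 1395.5 and 1158.1 with macroH2A1 shRNA and 805.1 and 744.1 with macroH2A2 shRNA. Both macroH2A2 shRNA arrays lay below the 4 others, and the log2 difference from control was -0.69 (SE 0.16), at adjusted p = 0.774 by limma without the block and 0.0688 with it. Its 3 further tested probe sets gave -0.46, -0.27 and 0.03 there. Rras2, a Ras-family GTPase, read 244.0 and 260.2, then 167.4 and 173.5, then 245.8 and 261.5, so that it was lowest in the macroH2A1 shRNA line, like Nrp2. Its log2 difference from control was -0.52 (SE 0.15; limma adjusted p 0.880, or 0.265 with the block), and the second probe set gave -0.30. Fes, a tyrosine kinase of the semaphorin pathway, was dim, with -0.40 and -0.75 (SE 0.29 each).

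Guidance receptors of the Slit, netrin and ephrin families, followed for comparison, had 12 of 21 members tested. In the macroH2A1 shRNA line 9 were lower and 3 higher (median -0.24), and in the macroH2A2 shRNA line 10 were lower and 2 higher (median -0.36). Over all tested probe sets the median was -0.03 in both, and 55.6% and 55.7% were lower. Most of the list was dim, and only Epha3, Neo1, Unc5c and Robo1 had mean signals above 42.8. These bright genes differed by -0.28, -0.21, 0.23 and -0.09 with macroH2A1 shRNA. With macroH2A2 shRNA they differed by -0.31, -0.01, 0.10 and -0.17. Epha7, an ephrin receptor, read 73.3 and 59.3 in control cells, 30.9 and 29.9 with macroH2A1 shRNA and 35.9 and 27.2 with macroH2A2 shRNA. It was lower without overlap in both, by -0.82 and -0.79 (SE 0.22 each) on the log2 scale, with limma adjusted p values of 0.880 and 0.956, or 0.139 and 0.156 with the block. Its second probe set gave -0.24 and -0.53. Ephb6 differed by -0.35 and -0.76 (SE 0.31 each) and Ephb4 by 0.14 and -0.50 (SE 0.27 each).

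**Figure D5:**
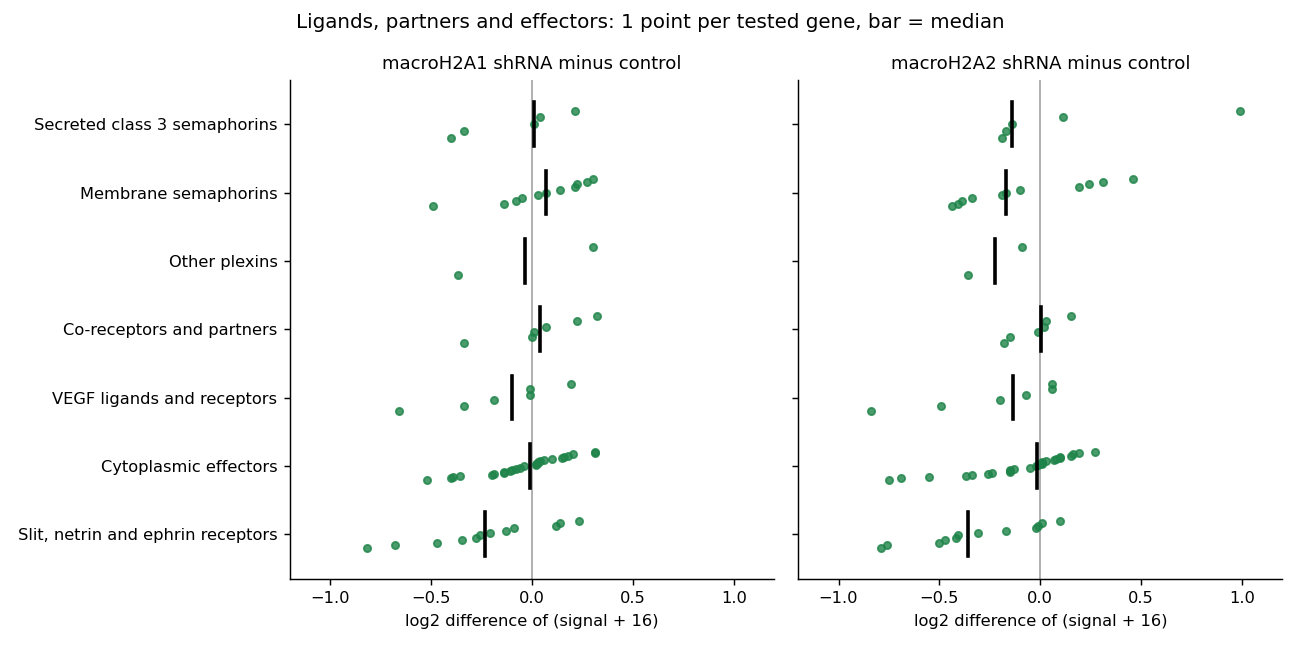
Log2 difference of signal + 16 (x axis) from the control line for the 68 tested genes of the 7 related lists (y axis), 1 point per gene by its brightest probe set, with a bar for the median of each list. Most points lie near 0, and the point farthest to the right for macroH2A2 shRNA is Sema3f (0.99).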

How the data were processed

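Signal intensities on a linear scale, deposited by the authors with 1 value per probe set, are MAS5 values according to the labels (per the submitters' processing notes), with neither the software version nor a genome build named in the sources used here. The 2% trimmed mean was 150.0 on all 6 arrays, so they had been scaled to a common level. Of 45101 probe sets, 64 controls were left out, and 34945 of the other 45037 carried 1 gene symbol, 932 several and 9160 none. Symbols came from the platform annotation, and promoter sequence from RefSeq (GRCm38.p6).

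Values were analysed as log2(signal + 16). Probe sets with a mean signal at or above the 40th percentile (10.4) were tested, 27025 in all. Values given for those below come from a fit without this filter. All 6 arrays entered 1 limma fit (limma 3.58.1, R 4.3.3; eBayes with trended variance) of 3 group means with 3 residual degrees of freedom. Two-sided p-values were adjusted by Benjamini and Hochberg's method across all tested probe sets, with calls under 0.05. The number of arrays limits the precision.

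Groups and replicate numbers came from the sample titles, which do not say that a number marks a shared batch. Replicate 1 minus replicate 2 correlated between lines at 0.576, 0.372 and 0.415 over tested probe sets, so the number was also fitted as a block, with 2 residual degrees of freedom. P-values set a difference against the spread between these samples, given as biological replicates, pooled over the lines and moderated across probe sets. With a single hairpin line per target, as far as the labels say, they hold no spread between hairpins or lines. A gene in a list was represented by its brightest tested probe set, and up to 3 genes per list with the smallest p were named, with the 5 genes most and least like Nrp2. The members and lists were chosen with earlier results of these data known. Alternatives were other pseudocounts, filters and scalings, the block, and leaving out each array.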

Additional observations from a re-analysis of the deposited data

How the results depend on the processing

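Limma without the block called 0 probe sets in each of the 3 comparisons under every alternative tried: a pseudocount of 1 or 64, no filter, a 60th percentile filter, quantile normalization, median-centred arrays and leaving out each array. With the replicate block the counts were 52 for macroH2A1 shRNA minus control, 39 for macroH2A2 shRNA minus control and 1 between the macroH2A lines. With the block and quantile normalization they were 22, 16 and 1, and with the block and no filter 0, 0 and 0. With the block and 1 array left out, the counts for macroH2A1 shRNA minus control were 34 and 50 without Control shRNA replicates 1 and 2, 67 and 26 without those of macroH2A1 shRNA and 515 and 514 without those of macroH2A2 shRNA. In the same order they were 3, 96, 138, 133, 114 and 804 for macroH2A2 shRNA minus control, and 5, 5, 6, 3, 106 and 204 between the macroH2A lines. The cause was not tested.

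The pairing of replicates by number changed the call of 2 member probe sets, both of Nrp2 for macroH2A1 shRNA, and of 0 genes of the related lists, with all arrays in the fit. Between the macroH2A lines the blocked fit with all arrays called 0 Nrp2 probe sets. Over the 21 alternatives, the log2 difference of the 4 Nrp2 probe sets from control with macroH2A1 shRNA lay between -1.46 and -0.24. A filter, the block alone or leaving out a macroH2A2 shRNA array cannot move this difference. Where the groups did not overlap, leaving out an array without the block cannot change its sign. The kept sign is therefore no added support. The size of the difference in the dim 1447343_at depended most on the array left out. Plxna2, below the filter, and dim genes above it, such as Plxna3 and Sema3f, are limited by signal over background.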
